A study of Mus musculus with 6 samples.

Results

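The genes described here are 35 genes of the lysosome, namely its acid hydrolases, their activators and cofactors, proteins of its membrane, and the transcription factors TFEB and TFE3. They were taken by symbol from a list of names that was drawn up with earlier results of these data known, and all 35 were found among the 38087 gene IDs of the count files. After removal of genes with low counts 34 of them were tested, among 16666 genes in all. Poly(A)-selected RNA was sequenced from HL-1, a line of mouse atrial cardiomyocytes. Of the 6 libraries, 3 came from cells given Circ-INSR siRNA at 100 nM, which targets a circular RNA made from the insulin receptor gene, and 3 from cells given a scramble control siRNA. All libraries come from this 1 line. Nothing in the labels says that replicates were separate cultures, so the p-values here reflect the spread among these samples, and that spread may be technical.

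Lysosomes are acidic vesicles in which proteins, glycans, glycogen and lipids that arrive by endocytosis or autophagy are broken down. Soluble hydrolases are made in the endoplasmic reticulum, most are tagged with mannose 6-phosphate in the Golgi, and they are carried to the lysosome as precursors that mature there. TFEB and TFE3 are helix-loop-helix factors that are held in the cytosol when nutrients are plentiful and move to the nucleus in starvation, where they bind CACGTG-type elements in the promoters of many lysosomal genes (the CLEAR network). Heart muscle depends on this system for the turnover of glycogen and mitochondria. Loss of GAA in Pompe disease and of LAMP2 in Danon disease each causes cardiomyopathy in humans.

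Because TFEB and TFE3 bind this core, the promoter windows of the RefSeq table (build GRCm38.p6, the same assembly as mm10) were searched for CACGTG, which reads alike on both strands. A window runs from 250 bases before to 50 bases after a start site, and 31 of the 35 genes had at least 1. Ctsb, Ctsh, Asah1 and Npc1 had none and were not searched. As a check of place, bases 11 to 50 after the start lay in a GENCODE transcript of the gene for 25 of 37 windows. The core was found in windows of 11 of those 31 genes (35.5%), against 8.09% of all 27025 genes in the table. That background takes in genes whether or not these cells express them. The promoters of many lysosomal genes were already known to hold such elements, so the larger share is not a finding of these libraries. With a T next to the core (TCACGTG on either strand, a longer form of the same core), the numbers were 9 genes, or 29.0%, against 4.29%. The stretches that hold the core are printed from 15 bases before the first match to 15 bases after the last where the window allows, 5′ to 3′ on the strand of the gene, with CACGTG in capitals.
Ctsf (chr19:4855071-4855106, plus strand): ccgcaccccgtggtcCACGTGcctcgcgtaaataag
Ctsl (chr13:64370736-64370770, minus strand): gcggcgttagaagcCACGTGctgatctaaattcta
Lgmn (chr12:102439121-102439156, minus strand): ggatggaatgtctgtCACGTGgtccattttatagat
Ctsd (chr7:142387905-142388077, minus strand): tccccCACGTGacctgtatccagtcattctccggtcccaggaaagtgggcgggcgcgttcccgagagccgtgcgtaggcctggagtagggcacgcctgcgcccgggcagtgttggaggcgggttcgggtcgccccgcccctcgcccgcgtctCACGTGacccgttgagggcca
Ctsa (chr2:164833746-164833798, plus strand): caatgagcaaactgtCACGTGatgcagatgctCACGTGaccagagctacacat
Gaa (chr11:119267808-119267843, plus strand): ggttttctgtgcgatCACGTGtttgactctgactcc
Gla (chrX:134601179-134601247, minus strand): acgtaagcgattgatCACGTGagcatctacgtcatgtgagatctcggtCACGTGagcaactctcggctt
Glb1 (chr9:114401015-114401050, plus strand): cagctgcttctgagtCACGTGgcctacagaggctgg
Arsa (chr15:89477420-89477455, minus strand): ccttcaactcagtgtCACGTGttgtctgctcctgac
Lamp1 (chr8:13159085-13159166, plus strand): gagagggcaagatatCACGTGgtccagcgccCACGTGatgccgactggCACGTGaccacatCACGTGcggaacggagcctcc
Mcoln1 (chr8:3500433-3500494, plus strand): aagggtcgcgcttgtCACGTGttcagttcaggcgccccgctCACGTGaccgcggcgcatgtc
Lamp1 had 4 matches within its stretch of 82 bases, Ctsa, Ctsd, Gla and Mcoln1 had 2 each, and Ctsf, Ctsl, Lgmn, Gaa, Glb1 and Arsa had 1. A match describes the letters of the window and does not show that a factor binds there.

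Total counts lay between 68468620 and 77037474 in Circ-INSR siRNA libraries and between 60024750 and 62523602 in control siRNA libraries, so that 3 counts corresponded to at most 0.05 CPM (counts divided by the TMM-scaled library total and multiplied up to a common total). Among the controls, replicate 3 was the least alike: a chi-square test gave 31.1 and 21.6 per gene between it and the others, 6.95 between those others, and at most 7.16 between any pair of Circ-INSR siRNA libraries. Insr, the gene that gives rise to the circular RNA, had a log2 fold change of -0.43 (SE 0.07; edgeR adjusted p = 0.000393), but gene counts of poly(A)-selected RNA do not separate circular from linear transcripts. Cardiomyocyte marker genes summed to 7947 to 7992 CPM after Circ-INSR siRNA and to 7129 to 7990 CPM after control siRNA, but its members moved in both directions. Of 8 such genes 3 rose, namely Actc1 (log2 fold change 0.87), Myl4 (0.86) and Myh6 (0.50), 2 fell, namely Tnnt2 (-0.73) and Myl7 (-0.19), and Ttn, Nppa and Ryr2 were not called. Lysosomal proteases are abundant in macrophages, and 10 marker genes of macrophages and leukocytes together had 4.26 to 4.67 CPM after Circ-INSR siRNA and 6.96 to 8.11 CPM after control siRNA. Of these 10 genes Adgre1 was at 0 in all libraries, Ptprc was at or below 0.0637 CPM in each, and most of the sum was Cd68, at 3.27 CPM after Circ-INSR siRNA and 5.19 CPM after control siRNA. Of these genes 3 were high enough to be tested, and 2, Cd68 and Csf1r, fell. Summed fibroblast markers had 132.6 to 149.6 CPM after Circ-INSR siRNA and 171.9 to 189.8 CPM after control siRNA. Most of that sum was Col1a1, which fell (-0.50), whereas Col3a1 (0.87) and Col1a2 (1.67) rose, and the median of the 4 tested was 0.75. Endothelial markers had 11.9 to 13.0 CPM after Circ-INSR siRNA and 4.57 to 5.25 CPM after control siRNA, most of it Tek, and smooth muscle markers, some of which immature cardiomyocytes also express, had 5836 to 6071 CPM and 3515 to 3614 CPM in the same order, most of it Acta2. The part of these shifts in the values below was not tested.

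Lysosomal transcripts were mostly lower after Circ-INSR siRNA, but not uniformly. Of the 34 genes tested 18 fell (52.9%), 4 rose (11.8%) and 12 were not called (quasi-likelihood test of edgeR, called at an adjusted p under 0.05 over all genes). Without control replicate 3, 18 fell and 5 rose. Among all genes tested 28.5% were lower and 28.5% higher. Since 33 of the 34 had a mean of at least 10 CPM, the closer background is that of the 9992 genes at this level, of which 30.2% were lower and 37.2% higher. Falls of at least 0.5 on the log2 scale were found for 8 of the 34 members, where 14.2% of all genes had such a fall. A rise of that size was found for 1 member, where 9.75% of all genes had one. The median log2 fold change of the 34 was -0.11, beside -0.005 for all genes tested. In 23 members every Circ-INSR siRNA library was below every control library (31.3% of all genes), and in 6 every one was above (32.0%). The shares for changes of at least 0.5 and for separate groups were taken over all genes tested. They were not computed for the genes with at least 10 CPM. The 8 with the larger falls were Ctsf, Man2b1, Tpp1, Ctsb, Ctsh, Ctsd, Gaa and Psap, and the 1 with the larger rise was Ctsl. All of them encode soluble proteins of the lumen, as do most members. The 4 that rose were Ctsl, Glb1, Neu1 and Cd63.

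**Figure D1:**
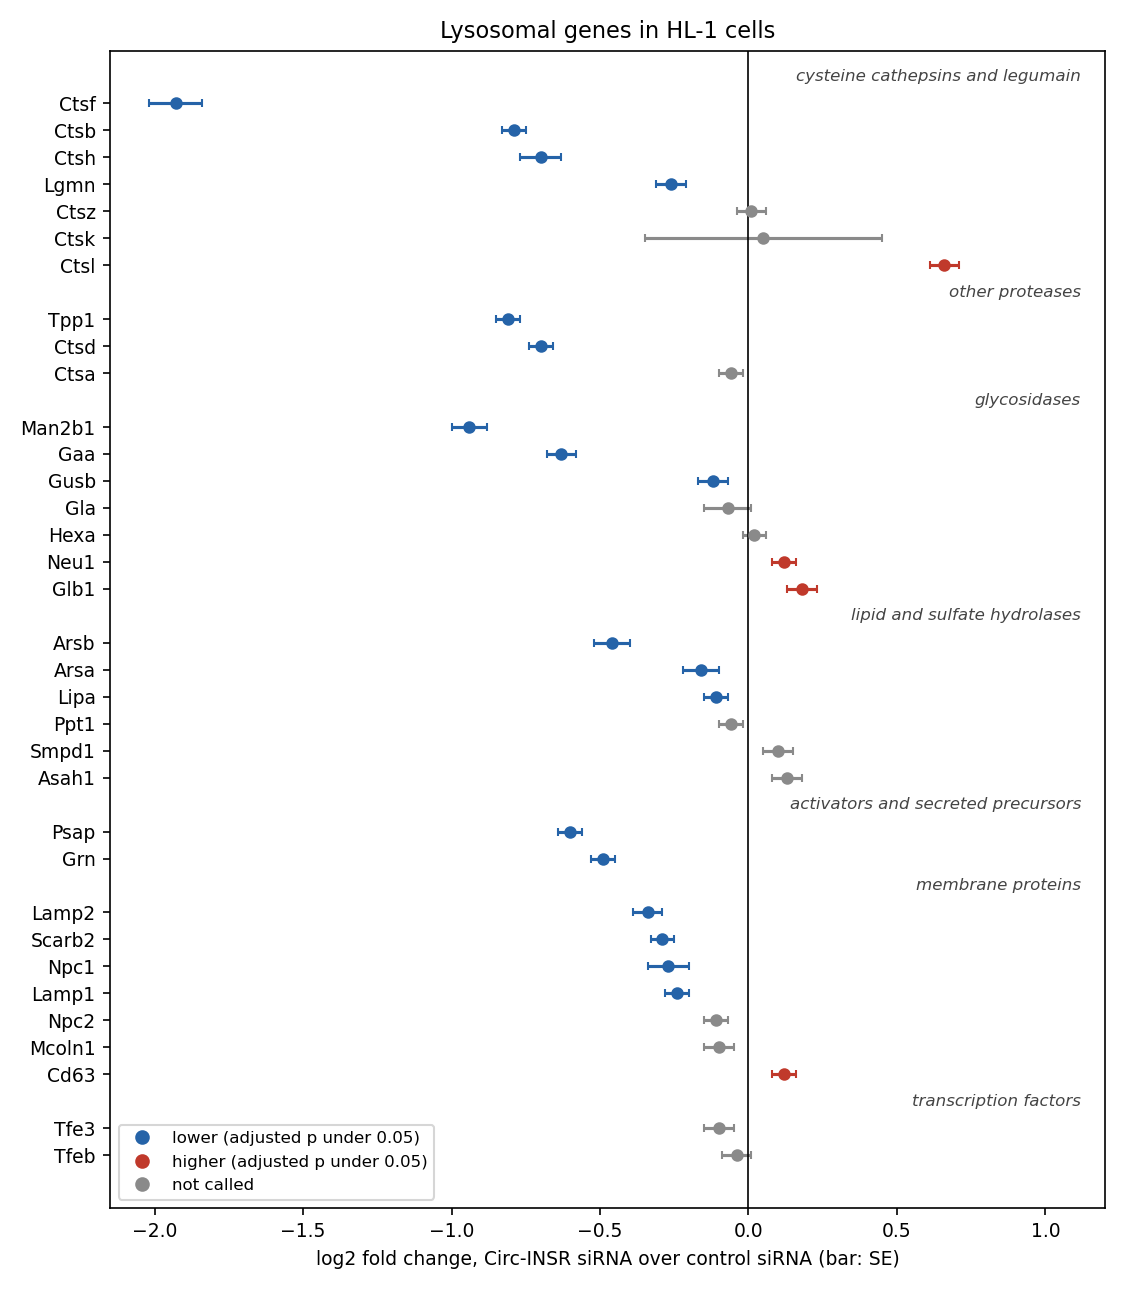
Log2 fold change (horizontal axis, Circ-INSR siRNA over control siRNA) with its SE for the 34 lysosomal genes tested, grouped by role and ordered within each role. Blue points were lower, red points higher and grey points not called; Ctsf lies farthest to the left at -1.93 and Ctsl farthest to the right at 0.66.

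Summed over the 35 genes, the level was 5395 ± 28.7 CPM after Circ-INSR siRNA and 7062 ± 70.5 CPM after control siRNA (SD, n = 3 each). These genes therefore held 0.538 to 0.543% of the counts in Circ-INSR siRNA libraries and 0.699 to 0.713% in control libraries. Ctsd alone made up 20.4% of the sum after Circ-INSR siRNA and 25.3% after control siRNA. Without Ctsd the sums were 4293.3 ± 8.33 and 5272.7 ± 24.4 CPM in the same order, a ratio of 0.814. In bulk RNA a smaller number of cells with many lysosomal transcripts cannot be told apart from fewer such transcripts in every cell.

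The cysteine cathepsins and legumain, endopeptidases and exopeptidases that degrade proteins in the lysosome, moved in both directions. Of the 7 tested, 4 fell, 1 rose and 2 were not called, with a median of -0.26. Ctsf, cathepsin F, a papain-like protease (mm10 chromosome 19, 4855130 to 4860918, plus strand), had 8.04, 6.34 and 7.04 CPM after Circ-INSR siRNA, against 29.3, 26.7 and 25.5 CPM after control siRNA. The groups lay far apart, and the log2 fold change of -1.93 (SE 0.09; edgeR adjusted p = 1.23e-08) was the largest fall among the members. Ctsb, cathepsin B, which cuts both within chains and at their C-terminal ends (chromosome 14, 63122462 to 63145923, plus strand), had 161.7, 154.7 and 156.2 CPM after Circ-INSR siRNA and 276.7, 270.1 and 273.3 CPM after control siRNA. No library of either group came near the other group, and the log2 fold change was -0.79 (SE 0.04; edgeR adjusted p = 2.64e-08).

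Ctsh, cathepsin H, an aminopeptidase (chromosome 9, 90054152 to 90076089), had 18.5, 20.2 and 21.5 CPM after Circ-INSR siRNA, against 30.3, 32.5 and 34.8 CPM after control siRNA. It was lower in 3 of 3 libraries, with a log2 fold change of -0.70 (SE 0.07; edgeR adjusted p = 5.10e-06). Lgmn, legumain or asparaginyl endopeptidase, which cuts after asparagine and processes other cathepsins, averaged 119.1 ± 2.26 CPM after Circ-INSR siRNA and 142.3 ± 7.12 CPM after control siRNA (SD, n = 3 each), a smaller fall of 0.26 on the log2 scale (SE 0.05). Ctsl, cathepsin L, an endopeptidase close to cathepsin F in fold (chromosome 13, 64359337 to 64370890, minus strand), went the other way. It had 136.4, 142.1 and 140.3 CPM after Circ-INSR siRNA and 86.8, 86.2 and 92.9 CPM after control siRNA. All 3 Circ-INSR siRNA libraries were above all controls, and the log2 fold change of 0.66 (SE 0.05; edgeR adjusted p = 2.77e-07) was the largest rise among the members.

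Ctsz, cathepsin Z, a carboxypeptidase, averaged 75.2 ± 0.836 CPM after Circ-INSR siRNA and 74.8 ± 3.21 CPM after control siRNA (SD, n = 3 each), with overlapping groups. Cathepsins K and S, the forms typical of osteoclasts and of antigen-presenting cells, were nearly absent. Ctsk had 0.609, 0.697 and 0.237 CPM after Circ-INSR siRNA, against 0.314, 0.476 and 0.701 CPM after control siRNA, and its SE of 0.40 leaves its direction undetermined at this depth. Ctss had 11, 4 and 0 counts after Circ-INSR siRNA and 0, 0 and 1 after control siRNA, and was too low to be tested.

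Among the other proteases Ctsd and Tpp1 fell, and Ctsa was not called. Ctsd, cathepsin D, the main aspartic protease of the lysosome (chromosome 7, 142375911 to 142388038, minus strand), had 1144, 1085 and 1076 CPM after Circ-INSR siRNA, against 1832, 1739 and 1798 CPM after control siRNA. The fitted level fell by 38.5%, a log2 fold change of -0.70 (SE 0.04; edgeR adjusted p = 4.75e-08). Tpp1, tripeptidyl peptidase 1, a serine protease whose loss causes a neuronal ceroid lipofuscinosis (chromosome 7, 105744811 to 105752235, minus strand), had 122.8, 126.0 and 127.1 CPM after Circ-INSR siRNA and 229.7, 215.3 and 214.0 CPM after control siRNA. The groups were far apart, with a log2 fold change of -0.81 (SE 0.04; edgeR adjusted p = 4.56e-08).

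Ctsa, cathepsin A or protective protein, is a serine carboxypeptidase that also stabilises the enzymes of Glb1 and Neu1 in a complex. It averaged 308.8 ± 5.62 CPM after Circ-INSR siRNA and 321.5 ± 4.64 CPM after control siRNA (SD, n = 3 each). The groups did not overlap, yet the difference of -0.06 (SE 0.04) on the log2 scale did not pass the test (edgeR adjusted p = 0.229). The partners of Ctsa in that complex were slightly higher. Glb1, beta-galactosidase, averaged 43.8 ± 1.15 CPM after Circ-INSR siRNA and 38.5 ± 1.07 CPM after control siRNA, a log2 fold change of 0.18 (SE 0.05; edgeR adjusted p = 0.00532). Neu1, a sialidase, averaged 56.0 ± 1.15 and 51.6 ± 1.32 CPM in the same order, a log2 fold change of 0.12 (SE 0.04; edgeR adjusted p = 0.0382). The call of Neu1 was lost without any 1 of the Circ-INSR siRNA replicates or control replicate 2 (edgeR adjusted p of 0.0555 to 0.127, log2 fold change of 0.101 to 0.138). Glb1 shares 5.5% of its exonic bases with Tmppe on the same strand, and Tmppe had a log2 fold change of 0.76 (SE 0.05). The part of Tmppe in the rise of Glb1 was not tested.

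**Figure D2:**
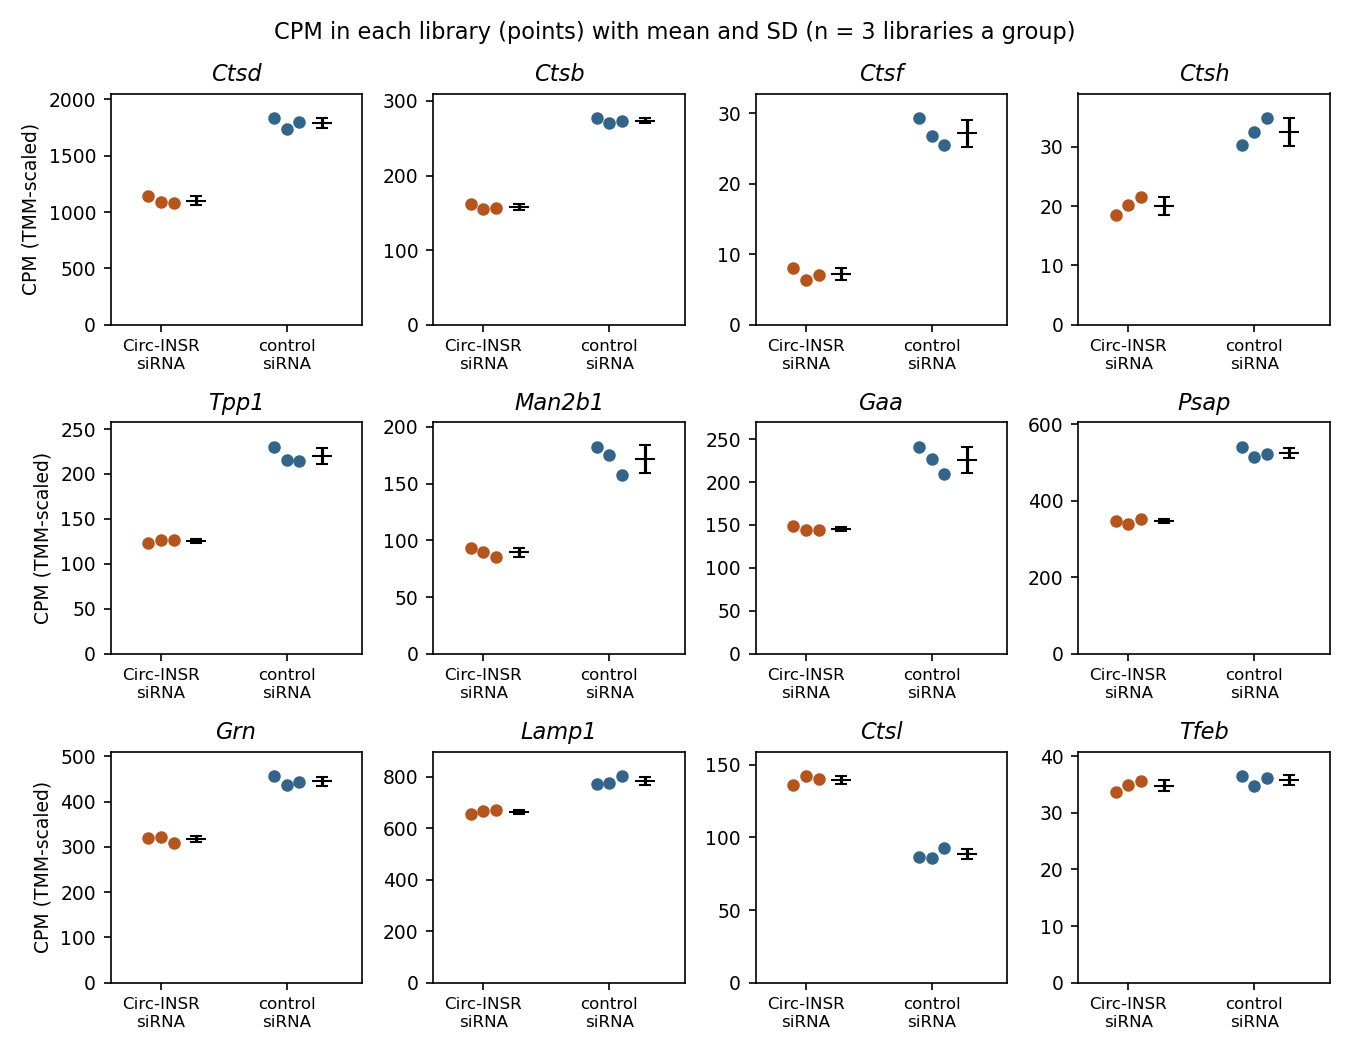
CPM (vertical axes, TMM-scaled, starting at 0) of 12 lysosomal genes in each library, with the mean and SD of the 3 libraries of each group beside the points. The groups are separate in every panel except that of Tfeb, and Ctsl is the gene shown whose Circ-INSR siRNA libraries lie above the controls.

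Of the 7 glycosidases, which remove sugars from glycoproteins, glycolipids and glycogen, 3 fell, 2 rose and 2 were not called, with a median of -0.07. The rises were those of Glb1 and Neu1. Man2b1, lysosomal alpha-mannosidase, which trims mannose from N-linked glycans (chromosome 8, 85083270 to 85098282, plus strand), had 93.5, 89.4 and 85.8 CPM after Circ-INSR siRNA, against 182.1, 175.0 and 158.0 CPM after control siRNA. Its fitted level fell by 47.9%, a log2 fold change of -0.94 (SE 0.06; edgeR adjusted p = 1.07e-07), the second largest fall after that of Ctsf. Gaa, acid alpha-glucosidase, which degrades glycogen in the lysosome (chromosome 11, 119267887 to 119285454, plus strand), had 148.4, 144.6 and 144.1 CPM after Circ-INSR siRNA and 240.5, 227.4 and 209.3 CPM after control siRNA. The lowest control, replicate 3, was still well above all Circ-INSR siRNA libraries, and the log2 fold change was -0.63 (SE 0.05; edgeR adjusted p = 1.16e-06).

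The remaining glycosidases differed little. Gusb, beta-glucuronidase, averaged 43.1 ± 1.17 CPM after Circ-INSR siRNA and 46.7 ± 1.25 CPM after control siRNA (SD, n = 3 each), and its log2 fold change of -0.12 (SE 0.05) lay close to the threshold (edgeR adjusted p = 0.0486). Its call was lost without any 1 of the Circ-INSR siRNA replicates, control replicate 2 or control replicate 3 (edgeR adjusted p of 0.067 to 0.183). Hexa, a subunit of the hexosaminidase that acts on ganglioside GM2, averaged 84.8 ± 2.42 and 83.5 ± 1.58 CPM in the same order, and was not called. Gla, alpha-galactosidase A, the enzyme missing in Fabry disease, averaged 14.9 ± 1.03 CPM after Circ-INSR siRNA and 15.6 ± 1.48 CPM after control siRNA, and was not called either. For both genes the groups overlapped.

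Genes of lipid hydrolases and sulfatases had log2 fold changes between -0.46 and 0.13. Of 6, 3 fell, 0 rose and 3 were not called, with a median of -0.09, and their summed level was 460.6 ± 7.07 CPM after Circ-INSR siRNA and 466.1 ± 9.39 CPM after control siRNA (SD, n = 3 each). Arsb, arylsulfatase B, which removes sulfate from dermatan and chondroitin sulfate, had 37.2, 37.6 and 40.2 CPM after Circ-INSR siRNA, against 56.7, 51.9 and 49.8 CPM after control siRNA. This was the clearest fall of these 6 genes, with a log2 fold change of -0.46 (SE 0.06; edgeR adjusted p = 2.85e-05). Arsa, arylsulfatase A, which acts on sulfatide, had a log2 fold change of -0.16 (SE 0.06; edgeR adjusted p = 0.0303), and Lipa, lysosomal acid lipase, which frees cholesterol from its esters, had one of -0.11 (SE 0.04; edgeR adjusted p = 0.0351). Arsa lost its call without Circ-INSR siRNA replicate 2 or 3 or any 1 control (edgeR adjusted p of 0.0504 to 0.146), and Lipa without any 1 of the Circ-INSR siRNA replicates or control replicate 2 (edgeR adjusted p of 0.0929 to 0.141). Asah1, acid ceramidase, averaged 207.3 ± 6.21 CPM after Circ-INSR siRNA and 190.0 ± 10.8 CPM after control siRNA, a difference of 0.13 (SE 0.05) that missed the threshold by little (edgeR adjusted p = 0.05004, just above the threshold of 0.05). Asah1 passed it without control replicate 3, at 0.153 (edgeR adjusted p = 0.00518), and under 6 of the 16 alternatives in all. Smpd1, acid sphingomyelinase, at 0.10 (SE 0.05), and Ppt1, palmitoyl-protein thioesterase, at -0.06 (SE 0.04), were not called.

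The genes of both precursor proteins fell. Psap encodes prosaposin, which is cut by cathepsin D into the saposins that present sphingolipids to their hydrolases (chromosome 10, 60277627 to 60302597, plus strand). It had 347.4, 340.0 and 352.5 CPM after Circ-INSR siRNA, against 539.4, 513.0 and 521.0 CPM after control siRNA, a log2 fold change of -0.60 (SE 0.04; edgeR adjusted p = 1.86e-07). Grn encodes progranulin, a secreted glycoprotein that is carried to lysosomes together with prosaposin and cut there into granulins (chromosome 11, 102430315 to 102437048, plus strand). It had 319.2, 321.6 and 309.5 CPM after Circ-INSR siRNA and 456.1, 436.5 and 443.1 CPM after control siRNA, a log2 fold change of -0.49 (SE 0.04; edgeR adjusted p = 9.12e-07). In both genes the groups lay far apart.

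Genes of membrane proteins and cholesterol exporters had log2 fold changes between -0.34 and 0.12. Of 7, 4 fell, 1 rose and 2 were not called, with a median of -0.24. Lamp1 and Lamp2 encode the heavily glycosylated proteins that line the inside of the lysosomal membrane. Lamp1 (chromosome 8, 13159161 to 13175338, plus strand) had 654.5, 666.0 and 670.3 CPM after Circ-INSR siRNA, against 770.8, 777.1 and 801.4 CPM after control siRNA, a log2 fold change of -0.24 (SE 0.04; edgeR adjusted p = 0.000158). Lamp2, whose splice forms were not separated by these gene counts, had 331.4, 346.1 and 334.8 CPM after Circ-INSR siRNA and 394.0, 439.0 and 447.7 CPM after control siRNA, a log2 fold change of -0.34 (SE 0.05; edgeR adjusted p = 0.000141). Scarb2 encodes LIMP-2, a membrane protein that carries a hydrolase to the lysosome, and averaged 303.0 ± 2.51 CPM after Circ-INSR siRNA and 369.5 ± 16.9 CPM after control siRNA (SD, n = 3 each), with a log2 fold change of -0.29 (SE 0.04).

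Npc1 and Npc2 hand cholesterol from the lumen to the membrane for export. Npc1, the membrane transporter, had 27.4, 28.5 and 28.1 CPM after Circ-INSR siRNA, against 36.7, 34.7 and 29.7 CPM after control siRNA, a log2 fold change of -0.27 (SE 0.07; edgeR adjusted p = 0.00661). Control replicate 3 was close to the Circ-INSR siRNA libraries for this gene. Npc2, the soluble cholesterol carrier, had a log2 fold change of -0.11 (SE 0.04) and missed the threshold by little (edgeR adjusted p = 0.0508), which it passed under 7 of the 16 alternatives. Mcoln1, the calcium channel of the lysosomal membrane, was not called, at 43.8 ± 1.72 CPM after Circ-INSR siRNA and 47.0 ± 1.43 CPM after control siRNA, but passed the test without control replicate 3, at -0.121 (edgeR adjusted p = 0.0357), and under 4 of the 16 alternatives in all. Cd63, a tetraspanin of late endosomes and lysosomes, averaged 164.5 ± 4.13 CPM after Circ-INSR siRNA and 151.5 ± 5.01 CPM after control siRNA, a log2 fold change of 0.12 (SE 0.04; edgeR adjusted p = 0.0371). Its call was lost without any 1 of the Circ-INSR siRNA replicates or control replicate 1 or 2 (edgeR adjusted p of 0.0608 to 0.141). A processed pseudogene of Cd63 is among the counted genes, so some of its reads may have been split between copies.

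Of the factors that drive lysosomal genes, Tfeb was not called under any alternative, and the call of Tfe3 depended on the processing. Tfeb had 33.7, 35 and 35.7 CPM after Circ-INSR siRNA, against 36.5, 34.8 and 36.1 CPM after control siRNA, with overlapping groups and a log2 fold change of -0.04 (SE 0.05; edgeR adjusted p = 0.497). Tfe3 had 68.3, 67.7 and 66.3 CPM after Circ-INSR siRNA and 75.5, 70.3 and 70.4 CPM after control siRNA. Its groups did not overlap, with a difference of -0.10 (SE 0.05; edgeR adjusted p = 0.0945). Tfe3 passed the test without control replicate 3, at -0.107 (edgeR adjusted p = 0.0417). It also passed with all 6 libraries under upper quartile scaling (-0.115; edgeR adjusted p = 0.0487), with total counts only (-0.14; edgeR adjusted p = 0.019) and after removal of the length and GC trend (-0.102; edgeR adjusted p = 0.0414). These factors act mainly through their place in the cell, which mRNA counts do not measure.

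Levels of different genes were compared per kilobase of exons. Ctsd was the most abundant lysosomal transcript in both groups, with 468 ± 15.8 CPM per kb after Circ-INSR siRNA and 761 ± 20.2 CPM per kb after control siRNA (SD, n = 3 each). Lamp1 was next with 248 ± 3.07 and 293 ± 6.03 CPM per kb, then Psap with 126 ± 2.30 and 191 ± 4.93 and Grn with 91.2 ± 1.84 and 128 ± 2.86, each in the same order of groups. These 4 kept their order, and so did Ctsa, in the fifth place with 65.5 ± 1.19 CPM per kb after Circ-INSR siRNA and 68.2 ± 0.985 after control siRNA. Below them several neighbours lay within their spread, such as Hexa and Cd63, with 41.8 ± 0.792 and 41.1 ± 1.36 CPM per kb after control siRNA. Man2b1 stood in place 23 after Circ-INSR siRNA and 16 after control siRNA, and Ctsl in place 16 after Circ-INSR siRNA and 22 after control siRNA. At the low end Tfe3, Tfeb, Mcoln1, Arsa, Gla and Npc1 all had under 10 CPM per kb in both groups.

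**Figure D3:**
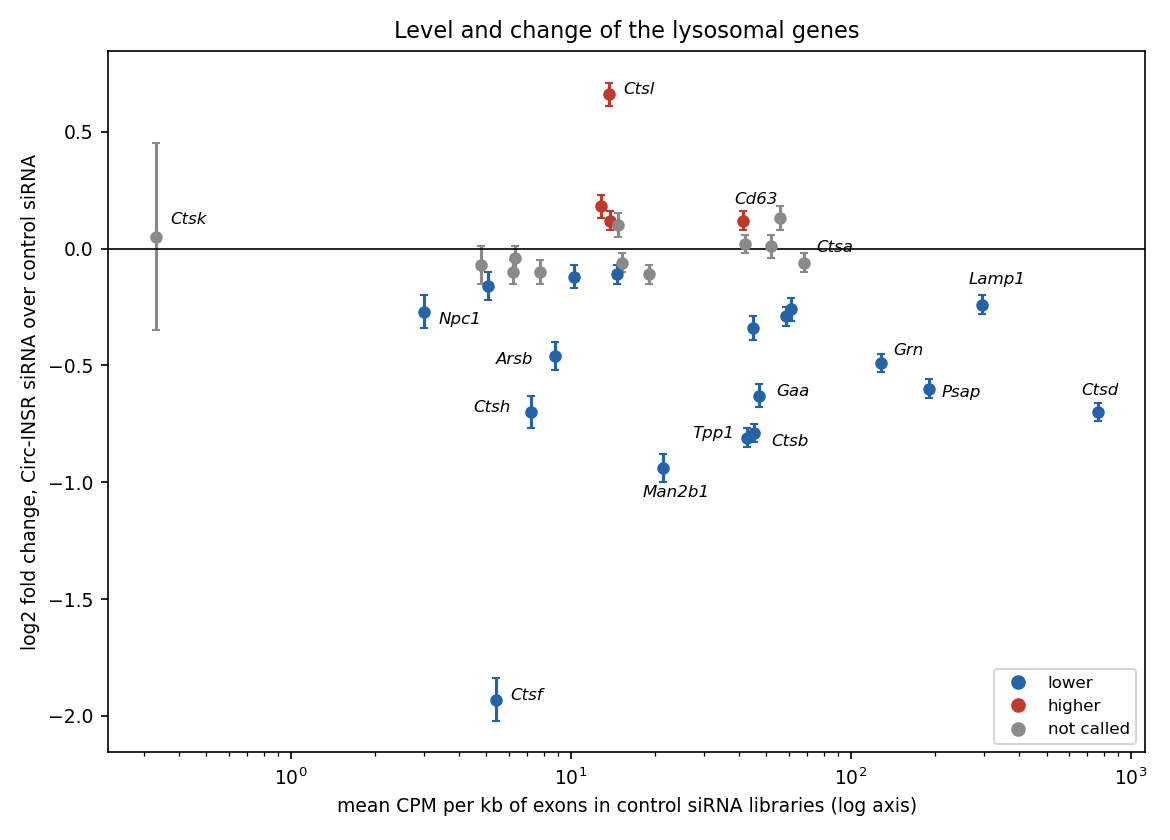
Mean level in control siRNA libraries (horizontal log axis, CPM per kb of exons) against the log2 fold change, Circ-INSR siRNA over control siRNA (vertical axis, bars are SE), for the 34 lysosomal genes tested. Blue points were lower, red higher and grey not called. The 4 most abundant genes, Ctsd, Lamp1, Psap and Grn, were all lower, and Ctsf had the largest fall.

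The genes with a CACGTG core in the printed stretches were found among falls, rises and genes not called. Of the 11 genes 6 fell, 2 rose and 3 were not called, and of the 20 with windows but no such core 9 fell, 2 rose, 8 were not called and 1 was not tested. The median log2 fold changes were -0.16 and -0.11. The largest fall and the largest rise, those of Ctsf and Ctsl, belonged to the genes whose single core had no neighbouring T. Ctsd and Lamp1, with 2 and 4 cores, had log2 fold changes of -0.70 and -0.24, whereas Ctsa, Gla and Mcoln1, with 2 each, were not called. Tpp1, Man2b1 and Psap fell without a core in their windows, and 250 bases before the start is only part of a regulatory region. Ctsb and Ctsh, also among the larger falls, had no window.

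Other parts of the lysosomal system were read from further lists of genes that are not among the 35, whose counts stand beside 28.5% lower and 28.5% higher among all genes tested. Of 29 further hydrolases and activators 15 fell and 11 rose (median -0.16), so that both directions were common. Gm2a, the activator that lifts ganglioside GM2 for hydrolysis, averaged 49.6 ± 1.09 CPM after Circ-INSR siRNA and 22.5 ± 0.981 CPM after control siRNA (SD, n = 3 each), with a log2 fold change of 1.14 (SE 0.05; edgeR adjusted p = 9.85e-09). Ctsc, cathepsin C or dipeptidyl peptidase I, which activates serine proteases of immune cells, rose by 0.90 (SE 0.06). Pcyox1, prenylcysteine oxidase, fell by 1.03 on the log2 scale (SE 0.05) and Ids, iduronate sulfatase, by 0.83 (SE 0.05). Of 24 further membrane proteins tested 8 fell and 5 rose (median -0.05). Abcd4, which takes part in lysosomal export of vitamin B12, fell by 1.14 (SE 0.06), Slc29a3, a nucleoside transporter, by 0.72 (SE 0.08) and Clcn7, the chloride-proton exchanger, by 0.59 (SE 0.05), while Tpcn1, a cation channel of the endolysosomal membrane, rose by 0.76 (SE 0.05).

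The V-ATPase is the proton pump that acidifies the lysosome, and 12 of its 18 subunit and accessory genes fell while 2 rose (median -0.23). Atp6v0e2, a small membrane subunit, averaged 32.5 ± 1.28 CPM after Circ-INSR siRNA and 67.3 ± 1.92 CPM after control siRNA (SD, n = 3 each), with a log2 fold change of -1.05 (SE 0.05; edgeR adjusted p = 1.25e-08). Tcirg1, the a3 subunit best known from osteoclasts, fell by 0.88 (SE 0.08), and Atp6v1c1, a subunit that joins the cytosolic and membrane sectors, by 0.40 (SE 0.04). Atp6v1e1, a stalk subunit, was one of the 2 that rose, with a log2 fold change of 0.64 (SE 0.05; edgeR adjusted p = 1.28e-06).

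Genes for the sorting and maturation of hydrolases were split, with 6 of 13 lower and 4 higher (median -0.06). Igf2r, the large mannose 6-phosphate receptor, averaged 12.3 ± 0.404 CPM after Circ-INSR siRNA and 23.3 ± 2.85 CPM after control siRNA (SD, n = 3 each), with a log2 fold change of -0.92 (SE 0.08; edgeR adjusted p = 2.42e-06). Nagpa, the uncovering enzyme that completes the mannose 6-phosphate tag, rose by 0.94 (SE 0.05). Vps26a, a retromer subunit that returns sorting receptors to the Golgi, fell by 0.62 (SE 0.05), and Sumf1, which activates sulfatases, by 0.33 (SE 0.05). Of 16 genes of lysosome fusion and positioning 9 fell and 1 rose (median -0.19), and 2 rose without control replicate 3. The GTPase genes Arl8a and Arl8b, whose products link lysosomes to kinesin, were split between the directions at -0.38 (SE 0.04) and 0.54 (SE 0.05), and Plekhm2, which joins Arl8 to kinesin, fell by 0.50 (SE 0.05), as did Vps41, a subunit of the HOPS tethering complex, by 0.34 (SE 0.04).

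Of 19 relatives of TFEB and TFE3 and nutrient-sensing genes that control them 5 rose (26.3%) and 2 fell (10.5%), with a median of 0.05. The share that rose was no higher than that among all genes tested, 28.5%. Rragd, a Rag GTPase that recruits TFEB and TFE3 to the lysosome, averaged 110.0 ± 3.94 CPM after Circ-INSR siRNA and 69.95 ± 0.566 CPM after control siRNA (SD, n = 3 each), with a log2 fold change of 0.65 (SE 0.04; edgeR adjusted p = 2.01e-07). Flcn, folliculin, the activator of RagC and RagD, rose by 0.22 (SE 0.05). The Ragulator subunit genes Lamtor4 and Lamtor2 moved apart, with log2 fold changes of 0.30 (SE 0.06) and -0.27 (SE 0.05). The list's counts depended on 1 library and on the correction for length and GC content. Without control replicate 3 they were 7 higher and 4 lower, and with the trend on exonic length and GC content removed they were 7 higher and 5 lower, with a median of -0.04.

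All 5 genes of the list of cathepsin inhibitors fell (median -0.74). Cst6, cystatin E/M, averaged 1.68 ± 0.516 CPM after Circ-INSR siRNA and 8.24 ± 1.07 CPM after control siRNA (SD, n = 3 each), with a log2 fold change of -2.30 (SE 0.20; edgeR adjusted p = 5.86e-06). Cstb, cystatin B, the cytosolic inhibitor of cysteine cathepsins, fell by 0.74 (SE 0.05), and Cst3, the secreted cystatin C, which was added to the named genes after its values were seen, fell by 0.32 (SE 0.05). Serpinb1a fell by 2.15 (SE 0.08) and Serpinb6a by 0.55 (SE 0.05). Both are serpins that are best known as inhibitors of serine proteases such as cathepsin G, whereas most of the cathepsins described above are cysteine or aspartic proteases.

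**Figure D4:**
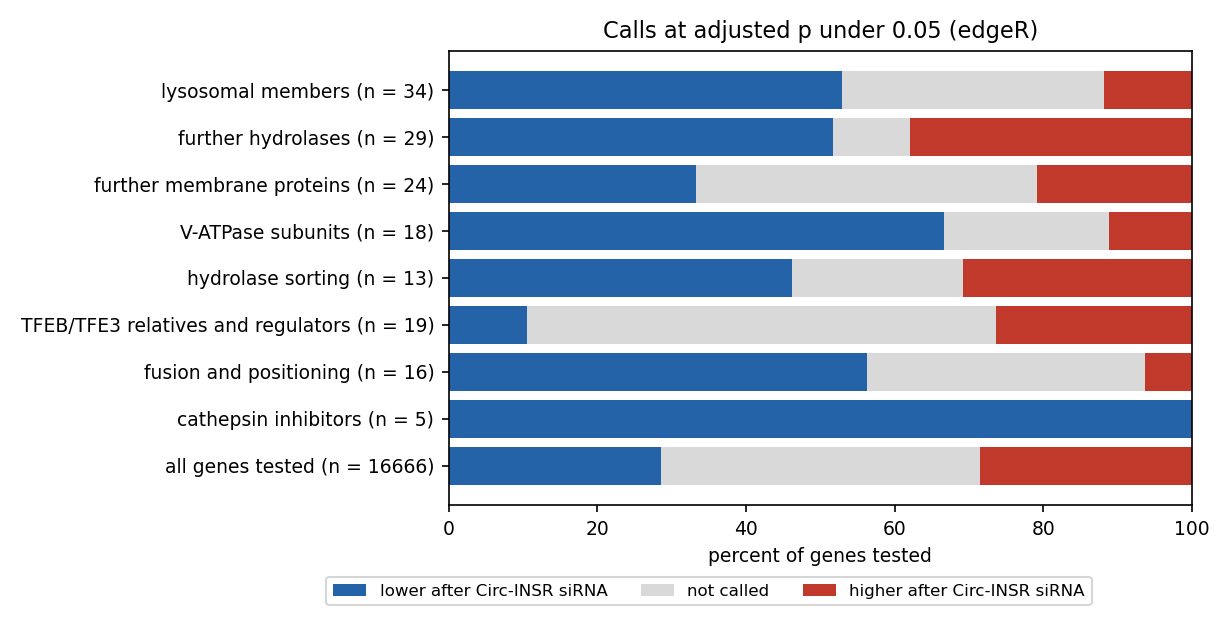
Share of genes tested (horizontal axis, percent) that were lower (blue), not called (grey) or higher (red) after Circ-INSR siRNA, for the 34 lysosomal genes, 7 further lists and all 16666 genes tested. Lower calls made up 52.9% of the lysosomal genes and 28.5% of all genes.

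Several members overlap other genes, and how reads in shared exons were assigned is not given in the sources used here. Ctsb shares 12.8% of its exonic bases with Fdft1 on the opposite strand, and Fdft1, a gene of sterol synthesis, was not called (0.03, SE 0.05). Arsb shares 32.3% with the noncoding gene Gm26527, which had 0.0652 CPM after Circ-INSR siRNA and 0.183 CPM after control siRNA. Lamp1 shares 9.3% with Grtp1 on the opposite strand, which rose by 0.74 (SE 0.07) while Lamp1 fell. Ctsa shares 10.5% with Pltp and 6.9% with Neurl2, whose log2 fold changes were -0.96 (SE 0.07) and 0.45 (SE 0.07). Ppt1 shares 3.5% with the more abundant Cap1 on the opposite strand, which rose by 0.46 (SE 0.04). Ctsd shares 34.4% with the protein-coding gene Gm49369 on the same strand. Ctsl shares 26.8% with Gm47123 on the opposite strand and 6.1% with the pseudogene Gm49230 on the same strand. Gm49369, Gm47123 and Gm49230 are not among the counted genes and have no values. Reads of such pairs may not be fully separated, and their part in the members' values was not tested.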

How the data were processed

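Each library has a deposited table of counts per Ensembl gene; the values are whole numbers with unequal totals, as in counts that are not normalized. Per the submitters' processing notes the build was mm10 and the tools included STAR 2.5.0c, featureCounts 1.6.4 and StringTie 1.3.5, with no role given. Libraries were made with a directional kit, per the labels' protocols; the strand setting of the counting is not given in the sources used here. Symbols and exonic lengths came from GENCODE M21, which held 36308 of 38087 IDs (95.33%), and promoter sequences from RefSeq (GRCm38.p6).

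Genes were filtered with filterByExpr (minimum count 10, minimum total 15) and scaled with TMM factors. Testing used edgeR 4.0.16 under R 4.3.3 (quasi-likelihood F-test, robust, group as the only term), with Benjamini-Hochberg adjustment over 16666 genes. SE is the log2 fold change over the square root of F. CPM per kb divides CPM by exonic length. The steps were tested on simulated data. The members and lists were chosen with earlier results of these data known. All 35 members are named, and up to 4 genes of each further list with the smallest adjusted p; Cst3 and 5 further hydrolases of the closing section (Naglu, Sgsh, Idua, Hgsnat and Galc) were chosen after their values were seen. Alternatives used DESeq2 1.42.0, limma 3.58.1, other scalings and filters, and each library left out. The counts of further lists without control replicate 3, or with the trend on length and GC content removed (mgcv 1.9.3), were added after seeing the data. Some genes of the further lists are counted but not reported here by name.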

Additional observations from a re-analysis of the deposited data

How the results depend on the processing

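In all 16 alternatives 15 of the 18 lower members and 2 of the 4 higher ones, Ctsl and Glb1, kept their call; the exceptions were Arsa, Gusb and Lipa among the lower and Neu1 and Cd63 among the higher genes. The number of higher members was 2 with upper quartile scaling, with total counts only and with a filter of 1 CPM in 3 libraries, 7 with the trend on length and GC content removed, and between 2 and 5 when a library was left out: 2 without any of the Circ-INSR siRNA replicates 1, 2 and 3 or control replicate 2. The number of lower members stayed between 15 and 22. The members' median was -0.133 with upper quartile scaling, -0.158 with total counts, -0.128 with the filter of 1 CPM, -0.129 with the trend removed, and between -0.151 and -0.115 with a library left out. Total counts moved the median of all genes to -0.049. Some genes that were not called changed direction. Ctsz was at -0.010, -0.036 and -0.003 with upper quartile scaling, total counts and the filter of 1 CPM, and between -0.015 and 0.045 with a library left out; Hexa was at -0.023 with total counts; Ctsk was at -0.024 with limma-voom, -0.009 with halved counts and between -0.242 and 0.396 with a library left out; Gla lay between -0.124 and 0.011 there. The cause was not tested. Same-numbered libraries had correlated deviations of 0.063, 0.188 and 0.158, too low in 1 pair to treat them as paired, although each library correlated best with its own number; the replicate block gave 4968 higher and 4900 lower genes, with 5 and 19 members. Counts as deposited may include both mates of a pair; halved, they gave 4 higher and 19 lower members. Depth limits Ctsk and Ctss.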

Other observations

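Groups of enzymes that share a substrate were drawn up after their values were seen, are given without a test, and do not cover every enzyme of a pathway. Among enzymes of heparan sulfate breakdown Ids, Naglu, Sgsh, Idua, Hgsnat and Gusb were lower after Circ-INSR siRNA, at -0.83, -0.83, -0.79, -0.54, -0.16 and -0.12 on the log2 scale (SE 0.05, 0.07, 0.08, 0.09, 0.04 and 0.05).

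Among genes of ganglioside breakdown Gm2a, Glb1 and Neu1 were higher, by 1.14, 0.18 and 0.12 on the log2 scale (SE 0.05, 0.05 and 0.04), while Hexa was not called (0.02, SE 0.04). Galc, which removes galactose from galactosylceramide, was lower at -0.50 (SE 0.04).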
